A study of Drosophila melanogaster with 12 samples.

Results

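The genes described here carry and take up lipid in the fly's hemolymph. They are 5 of the 16413 genes in the count table, chosen by name: Rfabg (current symbol apolpp), CG15828 (Apoltp), Mtp, LpR1 and LpR2. RNA was sequenced from whole Drosophila melanogaster larvae of the third instar, either wild type or null for mlx1, the gene of Mlx. Larvae came from eggs laid over 3 h, went to 10% yeast plates 24 h later and were moved again after a further 24 h. Low-sugar larvae went to a fresh plate with 10% yeast and were collected 1.5 h later (the column names of the table have 1 h), and high-sugar larvae went to 10% yeast with 20% sucrose and were collected 8 h later. The 4 groups are thus low-sugar wild type, low-sugar mlx1 mutants, high-sugar wild type and high-sugar mlx1 mutants, each with 3 libraries lettered A, B and C. All groups share the yeast diet and the transfer, and each genotype appears as 1 line in the labels, so that a genotype difference cannot be told apart from another difference between the lines. A diet contrast also holds the hours after transfer, and a tag in the column names (L2 for every low-sugar, L3 for every high-sugar library) whose meaning the labels do not give, so that these cannot be told apart from sugar.

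As background, insects move lipid between organs mainly as diacylglycerol in lipophorin, a reusable lipoprotein particle. Rfabg encodes its core apolipoproteins, cut from 1 precursor in the fat body, and CG15828 encodes the apolipoprotein of the lipid transfer particle, which in flies loads lipophorin with lipid at the gut. Mtp, the microsomal triglyceride transfer protein, lipidates these large apolipoproteins in the endoplasmic reticulum, and LpR1 and LpR2 are lipophorin receptors of the LDL receptor family. Mlx is the partner of Mondo in a transcription factor complex that responds to sugar, and the comparisons ask which differences between diets depend on it.

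Library totals ran from 8923055 to 12506335 counts. Mlx, listed as bigmax, stood at 26.2 to 34.1 CPM (counts per 1000000 counts of a library, TMM-normalized) in the wild-type libraries and at 0.494 to 1.08 CPM in the mutant ones, as labelled. The libraries differed in how evenly long genes were covered. In 1732 other genes with at least 3000 exonic bases and 20 CPM, the median ratio of counts 5′ of the middle to counts 3′ of it ran from 0.541 in library C of low-sugar wild type to 0.746 in library B of high-sugar wild type. Expressed as a median log2 deviation from each gene's own mean, called 5′ coverage below, it was -0.12 ± 0.10 in low-sugar wild type and 0.06 ± 0.15 in low-sugar mutants, and 0.13 ± 0.12 in high-sugar wild type and -0.06 ± 0.08 in high-sugar mutants (mean ± SD, n = 3). Library A of low-sugar mutants (0.23) and library B of high-sugar wild type (0.26) were highest. Results on long genes are therefore given with and without these libraries, and from the 3′ end alone. Of 8 fat body markers Fbp1 was at 0 in all libraries and 5 others had 4 to 74 counts over the 12 libraries, so that GRHR (1329 counts) and Lsp1gamma (878 counts) carry the sum. Bases shared by overlapping exon entries received no counts in this table, so that a low count need not be a low level. The list summed to 12.7 to 20.2 CPM in low-sugar wild type and 9.59 to 17.02 CPM in low-sugar mutants, and to 25.9 to 29.0 CPM in high-sugar wild type and 18.9 to 21.7 CPM in high-sugar mutants. The 10 midgut markers summed to 4657 to 5822 CPM in low-sugar wild type and 4774 to 5400 CPM in low-sugar mutants, and to 6717 to 8441 CPM in high-sugar wild type and 6022 to 6593 CPM in high-sugar mutants. Both sums were thus higher on high sugar in both genotypes and, on high sugar, lower in mutants, without overlap, and the part of the midgut markers in the results below was not tested. In whole larvae fewer cells of a type and less RNA per cell cannot be told apart.

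All 5 genes passed the filter on low counts, but their levels lay far apart. Rfabg was the 5th most abundant gene by mean CPM and took 0.297 to 1.07% of a library, 26841 to 122421 counts. CG15828 had 4476 to 12039 counts a library, Mtp 825 to 2745, LpR1 574 to 1181 and LpR2 231 to 388. Per kilobase of exon that could receive counts, the mean level over the 12 libraries was 591 CPM for Rfabg, 49.6 for Mtp, 46.0 for CG15828, 12.8 for LpR1 and 7.04 for LpR2. The lipophorin precursor thus led in level per length, and the receptors were lowest. For the long genes these values hold the low 5′ coverage described below.

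**Figure D1:**
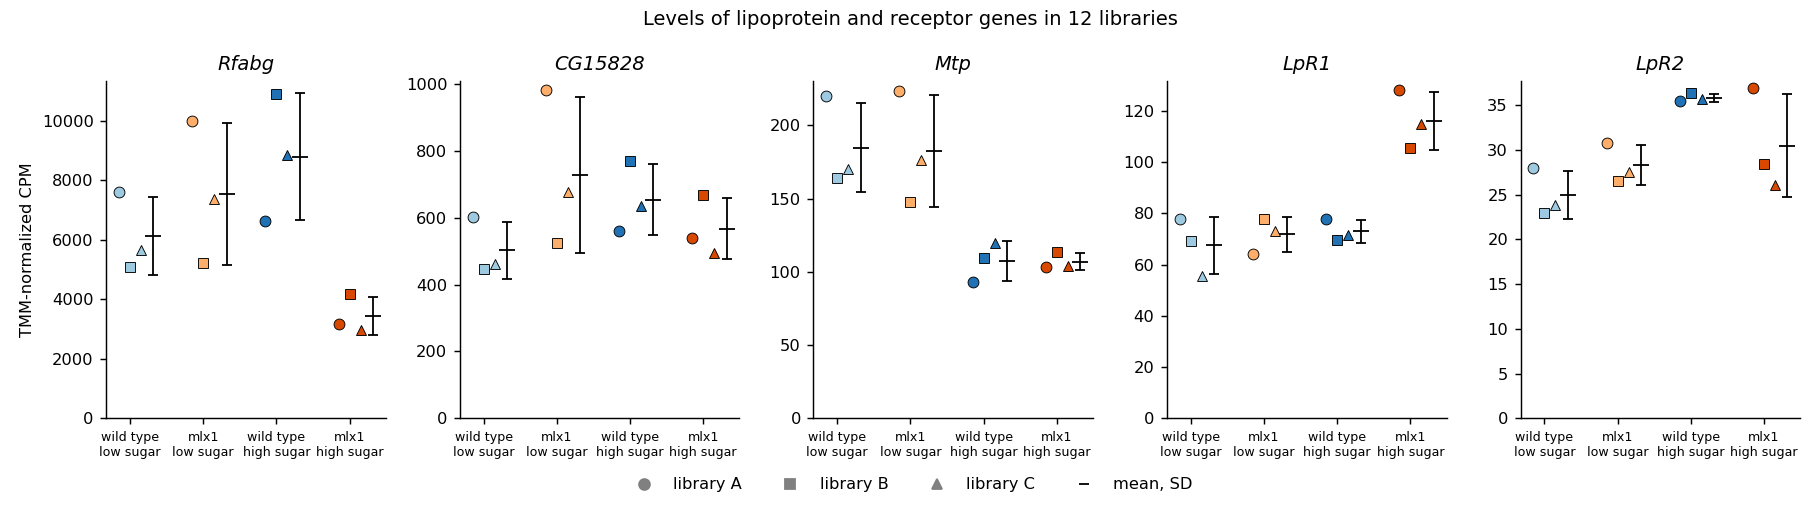
TMM-normalized CPM of each gene (y axes from 0, 1 scale a gene) in the 12 libraries by group (x axis); symbols are libraries A, B and C, and the bar is the mean with the SD of 3 libraries. Rfabg is lowest and LpR1 highest in high-sugar mutants, and Mtp is lower on high sugar in both genotypes.

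Rfabg, the lipophorin precursor, fell on high sugar in mlx1 mutants. On the fourth chromosome it spans 4:1085532-1097899 on the plus strand, in 9 exon entries with 11356 exonic bases. Its levels in libraries A, B and C were 7589, 5083 and 5661 CPM in low-sugar wild type and 9974, 5212 and 7378 CPM in low-sugar mutants. On high sugar they were 6634, 10891 and 8864 CPM in wild type and 3185, 4175 and 2957 CPM in mutants. All 3 mutant libraries on high sugar were below all 9 others, while the other 3 groups overlapped. In mutants the mean was 7521 ± 2384 CPM on low and 3439 ± 647 CPM on high sugar (SD, n = 3), a log2 fold change of -1.13 ± 0.26 (SE; edgeR quasi-likelihood test, Benjamini-Hochberg adjusted p = 0.00752), or 0.457 times the low-sugar level. In wild type the means were 6111 ± 1312 and 8796 ± 2130 CPM, and the log2 fold change of 0.53 ± 0.26 missed the threshold of 0.05 (adjusted p = 0.165 by the same test, 95% interval -0.04 to 1.09).

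Between the genotypes, Rfabg differed on high sugar and not detectably on low sugar. On high sugar the mutants stood at 0.391 times the wild-type level (log2 fold change -1.35 ± 0.26, edgeR adjusted p = 0.00553). On low sugar the log2 fold change was 0.30 ± 0.26 (edgeR adjusted p = 0.571, 95% interval -0.27 to 0.86). The interaction, which is the diet response of mutants minus that of wild type, was -1.65 ± 0.37 (edgeR adjusted p = 0.025). This call was lost with a replicate block (-1.66, edgeR adjusted p = 0.0518) and without each of 6 single libraries. Without wild-type library B or C on low sugar the edgeR adjusted p was 0.0664 or 0.0550, without mutant library C on low sugar 0.0573, without wild-type library B on high sugar 0.0670, and without mutant library A or C on high sugar 0.0727 or 0.0693. The diet response in mutants and the genotype effect on high sugar kept their calls in all 24 alternatives run for each.

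The level of Rfabg moved with 5′ coverage within groups. The log2 deviations from the group means correlated at r = 0.870 over the 12 libraries, and with the mean log2 level of larval cuticle genes, described with Mtp below, at r = -0.741. These are descriptions of libraries that share their RNA, depth and preparation. A 7166-base exon (entry 4, 4:1086566-1093731) and a 2119-base exon nearer the 3′ end (entry 6, 4:1094065-1096183) held most counts. The ratio of counts in entry 4 to entry 6 was 1.12, 0.847 and 0.717 in libraries A, B and C of low-sugar wild type, and 2.03, 1.02 and 1.16 in low-sugar mutants. On high sugar it was 1.31, 2.30 and 1.55 in wild type and 1.05, 1.20 and 0.807 in mutants. The ratio was thus highest in the same 2 libraries that had the highest 5′ coverage in other genes. Entries 1 and 2, at the far 5′ end, had fewer counts per base than entries 4 to 7.

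**Figure D2:**
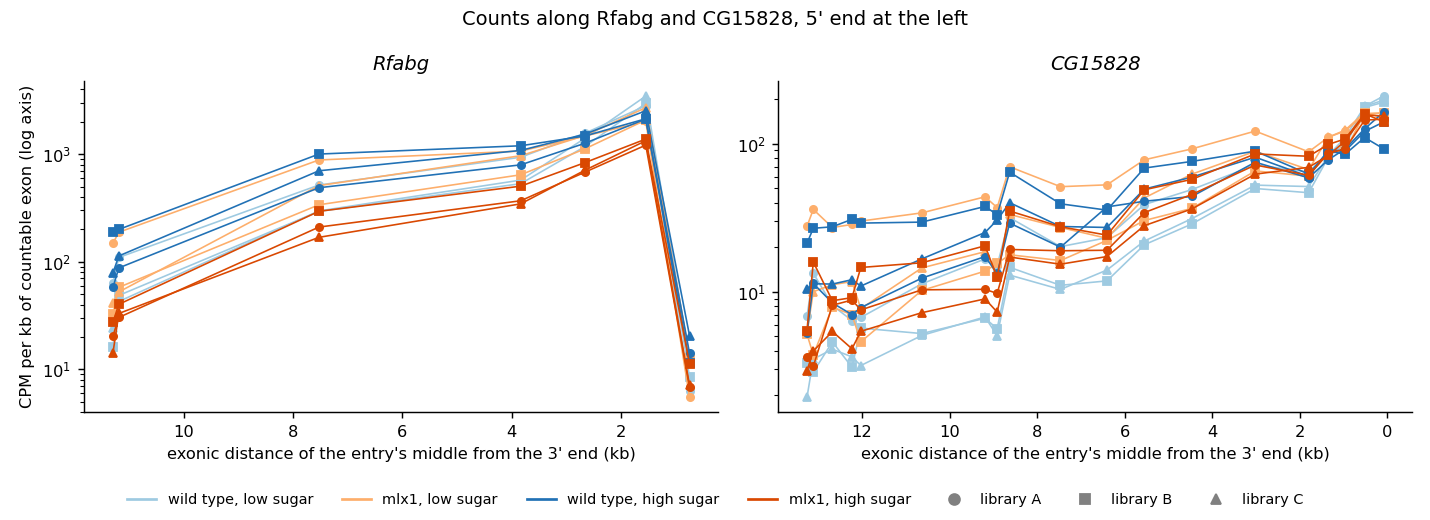
CPM per kilobase of countable exon (log y axis) of each exon entry of Rfabg and CG15828 with at least 100 countable bases, against its exonic distance from the 3′ end in kilobases (x axis, 5′ end at the left), for 12 libraries coloured by group. Libraries spread most widely at the 5′ end. Near the 3′ end of CG15828 they spread less, and in entries 19 and 20 low-sugar wild type lies above high-sugar wild type. For Rfabg the 3 mutant libraries on high sugar are also the lowest in entries 6 and 7, at its 2 highest densities.

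Counted only in entries 6 to 9, each of which ends within 2000 exonic bases of the 3′ end, Rfabg was less variable. Most of these counts lay in entry 6, whose 2119 bases were counted whole. The levels in libraries A, B and C were then 4290, 3270 and 3832 CPM in low-sugar wild type and 4042, 3007 and 4024 CPM in low-sugar mutants, and 3569, 4154 and 4244 CPM in high-sugar wild type and 1901, 2331 and 1943 CPM in high-sugar mutants. The mutant libraries on high sugar were again below the 9 others. The log2 fold change in mutants was -0.84 ± 0.15 (edgeR adjusted p = 0.00107), the genotype effect on high sugar -0.95 ± 0.15 (edgeR adjusted p = 0.000927) and the interaction -0.91 ± 0.21 (edgeR adjusted p = 0.0269). The diet response in wild type was 0.07 ± 0.15 (edgeR adjusted p = 0.772) and the genotype effect on low sugar -0.04 ± 0.15 (edgeR adjusted p = 0.915). With 5′ coverage as a covariate of the model on all entries, the genotype effect on high sugar was -0.86 ± 0.17 (edgeR adjusted p = 0.00676) and the interaction -0.66 ± 0.27 (edgeR adjusted p = 0.300). Of all 9756 genes tested near their 3′ end, 20.3% were called for diet in wild type and 27.7% in mutants, 3.11% and 13.1% for genotype on low and high sugar and 5.15% for the interaction. Without the 2 libraries of highest 5′ coverage the diet response in mutants was -0.87 ± 0.23 (edgeR adjusted p = 0.0228), the genotype effect on high sugar -1.17 ± 0.23 (edgeR adjusted p = 0.0117) and the interaction -1.22 ± 0.33 (edgeR adjusted p = 0.0939). The summed fat body markers, mostly GRHR and Lsp1gamma, were lower in mutants than in wild type on high sugar, without overlap, while in both genotypes their high-sugar libraries lay above the low-sugar ones, and their part in the result was not tested.

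**Figure D3:**
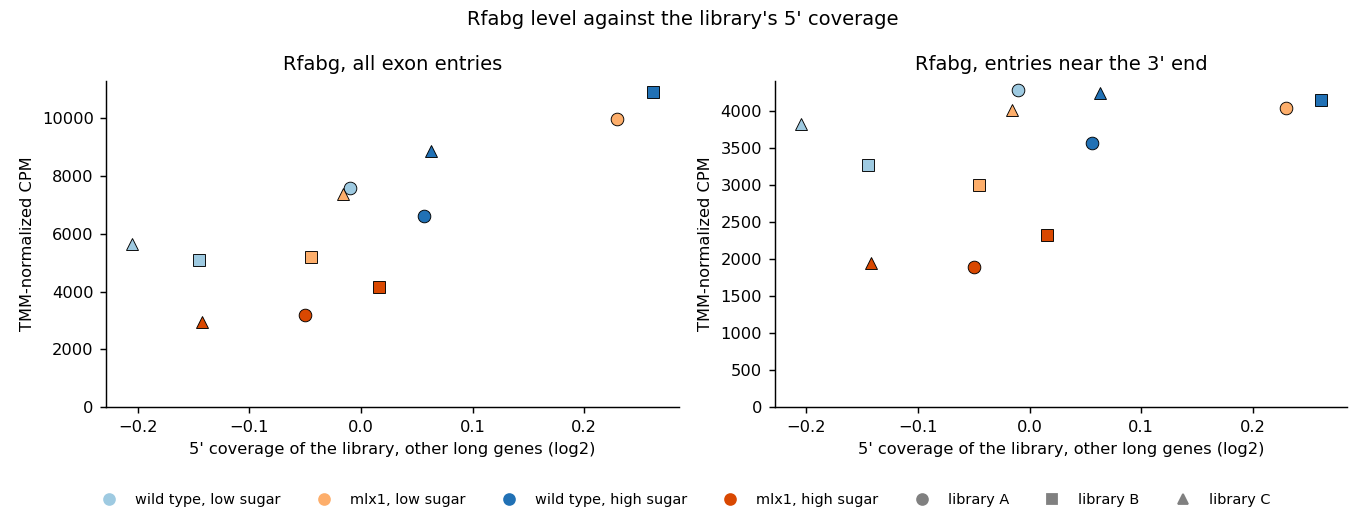
Rfabg level in TMM-normalized CPM (y axes from 0) against the 5′ coverage of each library in other long genes (x axis, log2 deviation), counted over all exon entries at the left and over the entries near the 3′ end at the right; colours are groups and symbols libraries. At the left the level climbs with 5′ coverage within groups, and in both plots high-sugar mutants are lowest.

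CG15828, the apolipoprotein of the lipid transfer particle, did not pass the test in any of the 5 contrasts. It spans 2L:9634179-9656026 on the plus strand in 20 exon entries and 13330 exonic bases. Its levels in libraries A, B and C were 601, 447 and 461 CPM in low-sugar wild type and 981, 524 and 677 CPM in low-sugar mutants, and 559, 769 and 634 CPM in high-sugar wild type and 539, 669 and 493 CPM in high-sugar mutants. The groups overlapped in every pair compared. By mean, low-sugar mutants (727 ± 233 CPM, SD, n = 3) came first, then high-sugar wild type (654 ± 106 CPM), high-sugar mutants (567 ± 91.5 CPM) and low-sugar wild type (503 ± 85.1 CPM), and the libraries of neighbours in this order overlapped.

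The 4 group means of CG15828 lay in the order of the mean 5′ coverage, except that the first 2 groups were exchanged. The ratio of its counts in entries 1 to 12 to those in entries 14 to 20 ran from 0.231 in library C of low-sugar wild type to 0.922 in library B of high-sugar wild type. Its log2 deviations from the group means correlated with 5′ coverage at r = 0.927, with the cuticle mean at r = -0.726 and with those of Rfabg at r = 0.9751 over the 12 libraries. The log2 fold change between genotypes on low sugar was 0.53 ± 0.22 (edgeR adjusted p = 0.228). It was 0.28 ± 0.14 from the 3′ end (edgeR adjusted p = 0.341) and 0.07 ± 0.12 with 5′ coverage as a covariate (edgeR adjusted p = 0.884). The 3′ end here means entries 14 to 20, with the 2269 bases of entry 14 counted whole. In the low-sugar libraries alone, where same-lettered libraries deviated together, a replicate block gave 0.49 ± 0.11 (edgeR adjusted p = 0.0359), the one setting that called this contrast. The labels state no pairing by letter. The interaction was -0.74 ± 0.31 over all entries (edgeR adjusted p = 0.171) and -0.26 ± 0.20 from the 3′ end (edgeR adjusted p = 0.489). Without the 2 libraries of highest 5′ coverage these contrasts were 0.26 ± 0.18 (edgeR adjusted p = 0.56) and -0.33 ± 0.25 (edgeR adjusted p = 0.55).

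Mtp, which lipidates both apolipoproteins in the fly fat body, fell on high sugar in both genotypes. It spans 2L:20919094-20922876 on the minus strand in 6 exon entries and 2930 exonic bases. Its levels in libraries A, B and C were 220, 164 and 170 CPM in low-sugar wild type and 224, 148 and 176 CPM in low-sugar mutants. On high sugar they were 92.7, 109 and 120 CPM in wild type and 103, 113 and 104 CPM in mutants. Every low-sugar library was above every high-sugar library. In wild type the mean was 185 ± 30.5 CPM on low and 107 ± 13.7 CPM on high sugar (SD, n = 3), and the log2 fold change was -0.78 ± 0.16 (edgeR adjusted p = 0.00549). In mutants it was 182 ± 38.5 CPM on low and 107 ± 5.60 CPM on high sugar, and the log2 fold change was -0.77 ± 0.16 (edgeR adjusted p = 0.00406).

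The genotypes did not differ detectably in Mtp on either diet. The log2 fold change was -0.02 ± 0.16 on low sugar (edgeR adjusted p = 0.967, 95% interval -0.37 to 0.34) and -0.0048 ± 0.1625 on high sugar (edgeR adjusted p = 0.990, 95% interval -0.36 to 0.35). The interaction was 0.01 ± 0.23 (edgeR adjusted p = 0.979, 95% interval -0.49 to 0.51). With 5′ coverage as a covariate the genotype effects were -0.27 ± 0.15 on low sugar (edgeR adjusted p = 0.482) and 0.25 ± 0.15 on high sugar (edgeR adjusted p = 0.355), and the interaction was 0.51 ± 0.24 (edgeR adjusted p = 0.371). Both diet responses kept their calls in all 24 alternatives, with log2 fold changes from -1.11 to -0.64 in wild type and from -0.90 to -0.59 in mutants. From the entries near the 3′ end they were -0.73 ± 0.17 (edgeR adjusted p = 0.0113) and -0.75 ± 0.17 (edgeR adjusted p = 0.00724). For Mtp those are entries 1 to 5. Only entry 6, with 1.69 to 4.42% of the counts of Mtp in a library, was left out, so that this count differs little from the whole gene. Within groups, Mtp was high where larval cuticle genes were low: its log2 deviations correlated at r = -0.938 over the 12 libraries with the mean log2 level of 74 tested cuticle genes, which are made around moults. With 5′ coverage the correlation was r = 0.736. The cuticle mean was 5.52 ± 0.97 in low-sugar wild type and 4.80 ± 1.14 in low-sugar mutants, and 4.37 ± 0.86 and 4.33 ± 0.25 on high sugar. With it as a covariate the diet responses of Mtp were -1.04 ± 0.10 in wild type (edgeR adjusted p = 1.21e-05) and -0.86 ± 0.09 in mutants (edgeR adjusted p = 6.72e-06).

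LpR1, a lipophorin receptor, rose on high sugar in mlx1 mutants. It spans 3R:21567070-21588827 on the minus strand in 18 exon entries. Its levels in libraries A, B and C were 77.7, 69.3 and 55.7 CPM in low-sugar wild type and 64.3, 77.9 and 73.2 CPM in low-sugar mutants. On high sugar they were 77.9, 69.5 and 71.5 CPM in wild type and 128, 106 and 115 CPM in mutants. All 3 mutant libraries on high sugar were above all 9 others, and the other groups overlapped. In mutants the mean was 71.8 ± 6.91 CPM on low and 116 ± 11.3 CPM on high sugar (SD, n = 3), with a log2 fold change of 0.69 ± 0.13 (edgeR adjusted p = 0.00188). On high sugar the mutants were 1.59 times the wild-type mean of 73.0 ± 4.36 CPM (log2 fold change 0.67 ± 0.13, edgeR adjusted p = 0.00492).

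In wild type the diet response of LpR1 was 0.11 ± 0.13 on the log2 scale (edgeR adjusted p = 0.574, 95% interval -0.17 to 0.40), and the genotype effect on low sugar was 0.09 ± 0.13 (edgeR adjusted p = 0.761). The difference between the 2 diet responses, 0.58 ± 0.18, missed the threshold (edgeR adjusted p = 0.0792). It passed without library C of low-sugar wild type (0.70 ± 0.16, edgeR adjusted p = 0.0360), the lowest of its group, and with the cuticle mean as a covariate (0.58 ± 0.18, edgeR adjusted p = 0.0497). Both called contrasts kept their calls in all 24 alternatives. The level of LpR1 had r = -0.126 with 5′ coverage within groups, and the log2 fold changes from the 3′ end were 0.71 ± 0.14 in mutants between diets (edgeR adjusted p = 0.00215) and 0.61 ± 0.14 between genotypes on high sugar (edgeR adjusted p = 0.0110). For LpR1 the 3′ end means entries 1 to 6, which hold most of its counts, so that these values are largely those of the whole gene. Rfabg was lowest and LpR1 highest in the same 3 libraries.

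LpR2, the other lipophorin receptor, rose on high sugar in wild type. It lies on the minus strand at 3R:21524449-21566187 in 21 exon entries, and 882 bases separate it from LpR1. Its levels in libraries A, B and C were 28.0, 22.9 and 23.9 CPM in low-sugar wild type and 30.8, 26.5 and 27.6 CPM in low-sugar mutants. On high sugar they were 35.5, 36.4 and 35.7 CPM in wild type and 37.0, 28.4 and 26.1 CPM in mutants. The 3 wild-type libraries on high sugar were close together and above all low-sugar libraries, while the mutant libraries on high sugar overlapped every other group. The wild-type mean was 24.9 ± 2.68 CPM on low and 35.9 ± 0.44 CPM on high sugar (SD, n = 3), with a log2 fold change of 0.52 ± 0.13 (edgeR adjusted p = 0.0155).

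This call of LpR2 was lost without library B (edgeR adjusted p = 0.0702) or C (0.0551) of low-sugar wild type, or library B of high-sugar wild type (edgeR adjusted p = 0.0506). Within groups the log2 deviations of LpR2 correlated with 5′ coverage at r = 0.522 and with the cuticle mean at r = -0.580 over the 12 libraries. With 5′ coverage as a covariate the log2 fold change was 0.35 ± 0.17 (edgeR adjusted p = 0.195), and from the few counts near its 3′ end 0.78 ± 0.17 (edgeR adjusted p = 0.00849). In mutants the log2 fold change was 0.11 ± 0.13 (edgeR adjusted p = 0.593, 95% interval -0.18 to 0.40). The interaction of -0.42 ± 0.19 missed the threshold (edgeR adjusted p = 0.206), so that the diet responses were not shown to differ. The mutant was higher in each of the 3 same-lettered pairs on low sugar, and a replicate block in these libraries alone gave 0.18 ± 0.09 (edgeR adjusted p = 0.266). In the fit to all libraries the genotype effects were 0.18 ± 0.13 on low sugar (edgeR adjusted p = 0.504) and -0.23 ± 0.13 on high sugar (edgeR adjusted p = 0.303).

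**Figure D4:**
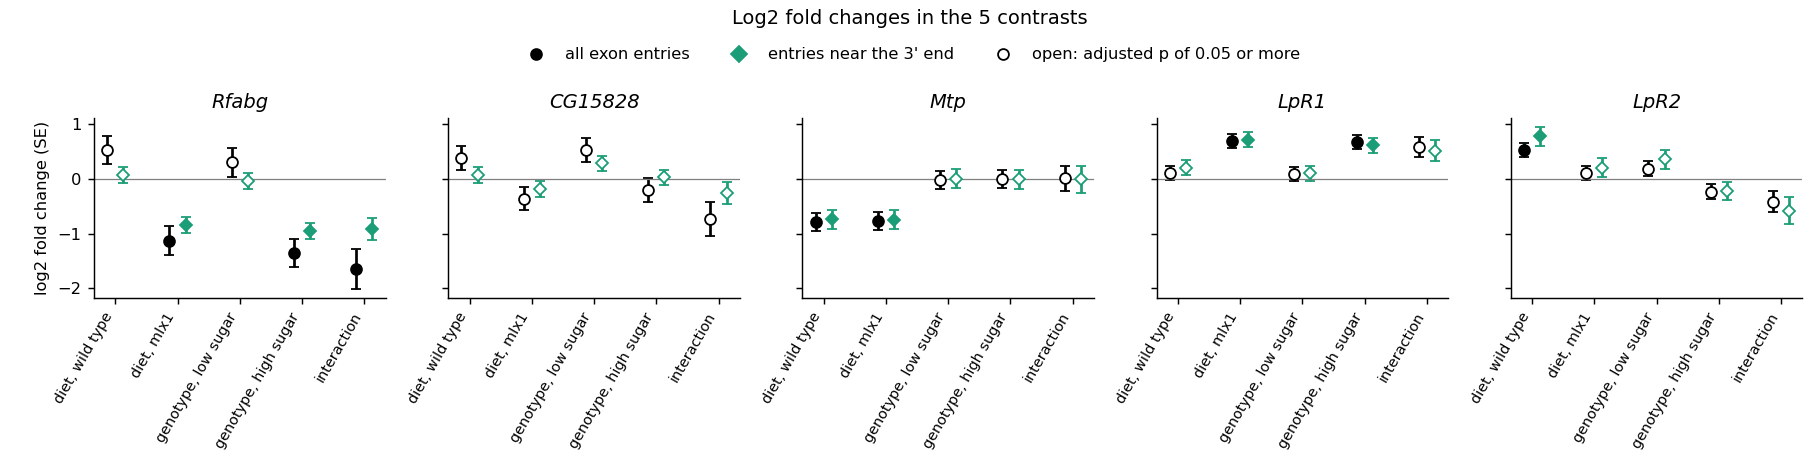
Log2 fold changes with standard errors (y axis) of the 5 genes in the 5 contrasts (x axis), from all exon entries (circles) and from the entries near the 3′ end (diamonds); filled symbols have an adjusted p under 0.05. Mtp and LpR1 give similar values from both, and those of Rfabg and CG15828 are closer to 0 from the 3′ end. The entries near the 3′ end hold most counts of Mtp and LpR1, so that for these genes circles and diamonds rest largely on the same counts.

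Over the 5 genes, 2 were called for the diet response in wild type, where 23.1% of the 10045 genes tested were called. In mutants 3 were called for diet (background 29.3%). For the genotype effect 0 were called on low sugar (background 3.59%; CG15828 alone had an unadjusted edgeR p under 0.05, and DESeq2 also called 0) and 2 on high sugar (background 13.9%). For the interaction 1 was called (background 6.89%). The diet contrasts share their low-sugar or high-sugar libraries with the genotype contrasts, so that these counts are not independent.

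Both receptor genes have an upstream and a downstream transcription start, and in flies the long isoforms from the upstream start are the ones known to mediate uptake of neutral lipid together with the lipid transfer particle. Matched by relative position to the transcripts of a later annotation, entries 13 to 18 of LpR1 belonged only to 7 transcripts with an upstream start, and entries 11 and 12 only to 3 with a downstream start. Entry 14 of LpR1 (494 bases) had 1149 counts over the 12 libraries. Entries 13 (141 bases) and 11 (131 bases), which both join entry 10, had 121 and 54 counts. Counts from both starts were thus present, and of the 2 joining exons of like length that of the upstream start had more.

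The upstream entry 14 of LpR1 moved with the gene. It stood at 4.85 to 10.8 CPM in low-sugar wild type and 7.31 to 9.45 CPM in low-sugar mutants, and at 6.18 to 7.73 CPM in high-sugar wild type and 13.8 to 16.3 CPM in high-sugar mutants, where the libraries of the mutants lay above all others. Its share of the counts of LpR1 was 8.89 to 10.8% in high-sugar wild type and 12.7 to 14.2% in high-sugar mutants, and 8.60 to 13.9% and 9.76 to 14.7% on low sugar. The shares of the genotypes did not overlap on high sugar and those of the diets overlapped in mutants. Entry 14 was not called for exon usage in any contrast.

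In LpR2, entries 19 to 21 belonged to 5 transcripts with an upstream start and had 761 counts over the 12 libraries. The first exons of the 4 downstream-start transcripts, entries 17 and 18, overlap each other and had 0 counts. Their second exons, entries 15 and 16, also overlap each other, with 6 counts in entry 16 and 0 in entry 15. Bases shared by overlapping entries received no counts in this table, so that 0 in these entries does not show that the downstream start was unused. The upstream entries held 16.7 to 23.4% of the counts of LpR2 in low-sugar wild type, 19.5 to 24.1% in low-sugar mutants, 16.8 to 20.6% in high-sugar wild type and 20.3 to 24.9% in high-sugar mutants, ranges that all overlapped. Of the alternative exons 12 (123 bases) and 13 (120 bases), entry 12 had 58 counts and entry 13 had 3.

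**Figure D5:**
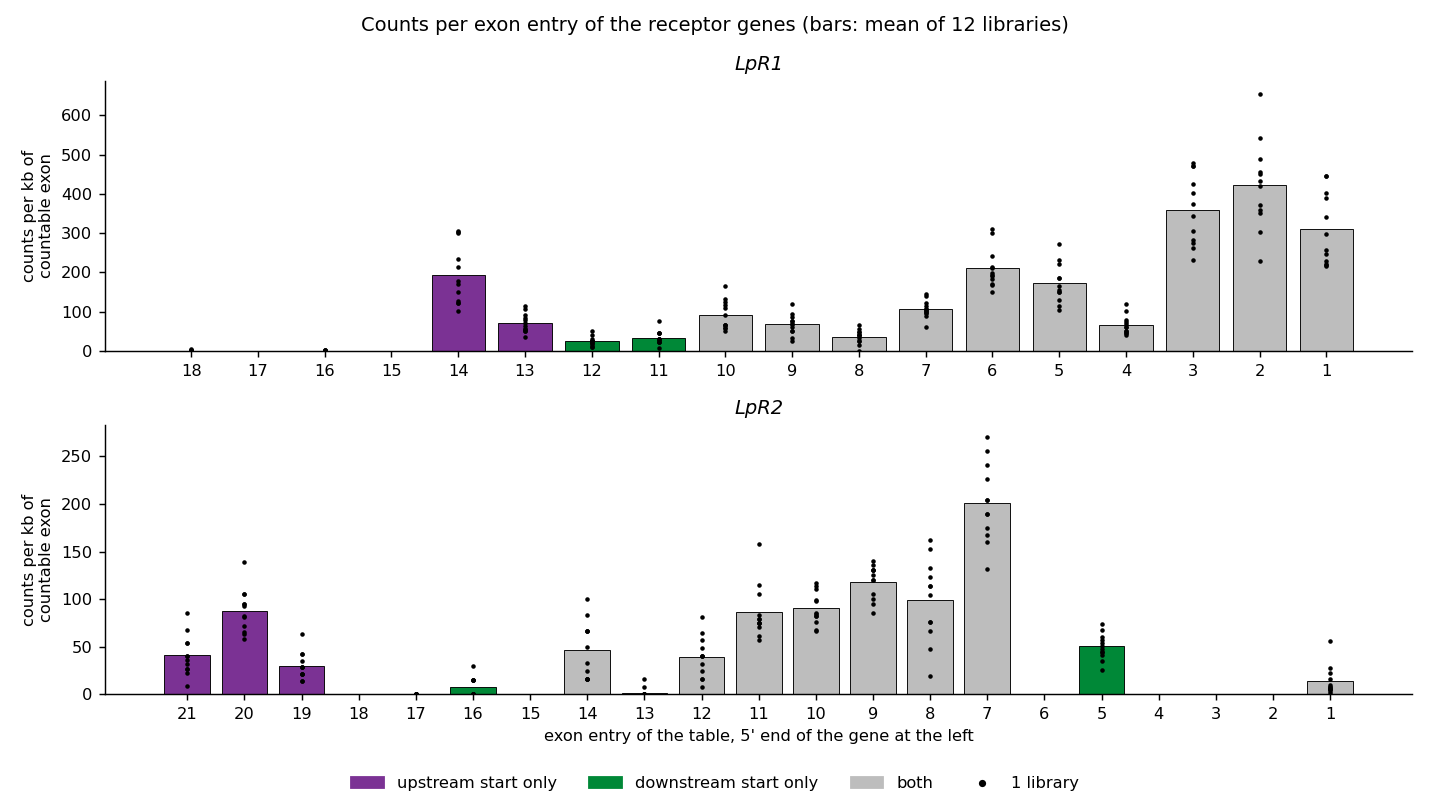
Counts per kilobase of countable exon (y axes from 0) in each exon entry of LpR1 and LpR2, in transcript order with the 5′ end at the left (x axis); bars are means of 12 libraries, dots are libraries, and colours mark entries used by transcripts with only an upstream or only a downstream start. Entry 14 of LpR1 and entry 20 of LpR2 stand out among the upstream entries, entry 5 of LpR2 is a 3′ exon of a downstream-start transcript, and entries without a bar had no countable bases or no counts.

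No exon entry of the 5 genes was called for a change in usage, that is, a change unlike that of the rest of its gene, in any contrast. The edgeR exon test covered 32629 entries and called 0.0889% of them for diet in wild type and 0.046% in mutants, 0.0736% for genotype on low sugar and 0.129% on high sugar, and 0.0306% for the interaction. At an unadjusted edgeR p under 0.05 there were 23 of 100 tests in CG15828, 5 of 35 in Rfabg, 3 of 30 in Mtp, 3 of 45 in LpR2 and 1 of 55 in LpR1, against 2.67% of the tests over all entries. These tests share libraries between contrasts. The smallest adjusted p among them was 0.629. Most of the low unadjusted values of the 5 genes thus lay in CG15828, the longest of them. For bigmax the same test called entry 2 (edgeR adjusted p = 0.0127) and entry 3 (edgeR adjusted p = 0.00411) between the genotypes on low sugar. On high sugar it called the same entries (edgeR adjusted p = 0.0233 and 0.000934).

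Across all 12 libraries, the levels most like that of Rfabg, among 7106 genes with at least 10 CPM, included those of CG11378 (Pearson's r of log2 CPM 0.987) and Mct1 (0.961). Mct1 stood at 62.1 CPM in low-sugar wild type and 68.3 CPM in low-sugar mutants, and at 68.6 and 32.9 CPM on high sugar. For CG15828 they were Gl (0.950), CG2807 (0.948) and Tango1 (0.947), which in flies helps large cargo leave the endoplasmic reticulum. All 3 are long (4550, 4346 and 4679 exonic bases), against a median of 2321 among the 7111 genes with a mean of at least 10 CPM. For Mtp they were CG8635 (0.966), DNApol-alpha50 (Prim1, a primase subunit; 0.965) and CG9578 (0.962). For LpR1 they were CBP (0.983), CG33056 (Targ2; 0.946) and CG14767 (0.943), and for LpR2 sdk (0.944), Apc (0.935) and CG7702 (0.935). Of those for LpR2, sdk and Apc are longer still (9565 and 8506 exonic bases), and CG7702 has 2404. CBP stood at 188 CPM in low-sugar wild type and 189 CPM in low-sugar mutants, and at 192 and 294 CPM on high sugar. These correlations are descriptions over libraries that share their depth and 5′ coverage.

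Other genes that make, carry or take up lipid were mixed. Of 59 listed genes 50 were tested. For diet 10 were called higher and 7 lower in wild type (background 11.5% and 11.6% of all genes tested), and 7 higher and 4 lower in mutants (13.5% and 15.7%). For genotype 4 were called higher and 1 lower on low sugar (1.82% and 1.77%), and 7 higher and 6 lower on high sugar (6.8% and 7.06%). The interaction was called positive in 4 and negative in 4 (3.32% and 3.57%). The median log2 fold change of the lists was 0.09 in the wild-type diet response against -0.05 over all genes tested, and 0.0034 against 0.0032 in the genotype effect on high sugar.

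Few of the closest relatives of the 5 genes were called. cv-d, another large lipoprotein of this family, rose on sugar in wild type, with 130 ± 5.99 CPM on low and 170 ± 7.69 CPM on high sugar (SD, n = 3; diet response 0.38 ± 0.10, edgeR adjusted p = 0.0185) and was lower in high-sugar mutants (log2 fold change -0.40 ± 0.10, edgeR adjusted p = 0.0202). Of 4 tested genes of the LDL receptor family, LRP1 alone was called, for the diet response in wild type (log2 fold change 0.58 ± 0.15, edgeR adjusted p = 0.0148). Of 6 genes of lipoprotein assembly and processing, sar1, which builds the coat of vesicles leaving the endoplasmic reticulum, alone was called. It fell on sugar in wild type (log2 fold change -0.31 ± 0.08, edgeR adjusted p = 0.0199). None of the 6 was called in mutants or for genotype or interaction. From the entries near the 3′ end these 4 log2 fold changes missed the threshold, at 0.22 ± 0.09 and -0.29 ± 0.09 for cv-d (edgeR adjusted p = 0.118 and 0.0570), 0.06 ± 0.15 for LRP1 (edgeR adjusted p = 0.825) and -0.24 ± 0.09 for sar1 (edgeR adjusted p = 0.0777). Each was also lost without 1 or more single libraries, among them library B of high-sugar wild type, with edgeR adjusted p from 0.0617 to 0.0840.

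Among CD36 family scavenger receptors, CG2736 and CG3829 were higher in high-sugar mutants, by 0.62 ± 0.10 (edgeR adjusted p = 0.00193) and 0.94 ± 0.11 on the log2 scale (edgeR adjusted p = 0.000151). On low sugar CG2736 was lower in mutants (log2 fold change -0.64 ± 0.10, edgeR adjusted p = 0.00480), and for CG3829 the value was 0.09 ± 0.11 (edgeR adjusted p = 0.70). CG2736 rose on sugar in mutants (log2 fold change 0.91 ± 0.10, edgeR adjusted p = 6.95e-05), while for CG3829 the value was 0.31 ± 0.11 (edgeR adjusted p = 0.0555). In wild type both fell on sugar, by 0.36 and 0.55 on the log2 scale (edgeR adjusted p = 0.0264 and 0.00474; lost by CG2736 in 8 and by CG3829 in 1 of 24 alternatives). Among the enzymes of glycerolipid synthesis, fu12 (Agpat2, which acylates lysophosphatidic acid) was at 28.3 ± 1.48 CPM in wild type on low and 145 ± 14.8 CPM on high sugar, and at 42.0 ± 10.6 and 65.1 ± 6.73 CPM in mutants (SD, n = 3; interaction -1.72 ± 0.23, edgeR adjusted p = 0.00178). Lpin, the phosphatidate phosphatase that makes diacylglycerol, was higher in high-sugar mutants (log2 fold change 1.33 ± 0.13, edgeR adjusted p = 4.39e-05). It was also higher in low-sugar mutants (log2 fold change 0.85 ± 0.13, edgeR adjusted p = 0.00369, called in 24 of 25 alternatives). For genotype on high sugar, Lpin was the 1 gene called higher of the 10 tested in this list, and 4 were called lower, among them fu12. mdy, a diacylglycerol acyltransferase, rose on sugar in both genotypes (log2 fold changes 0.58 ± 0.10 and 0.75 ± 0.10, edgeR adjusted p = 0.00186 and 0.000187). Among the lipases, bmm, the triglyceride lipase of lipid droplets, was at 34.2 ± 5.11 CPM in high-sugar wild type and 171 ± 23.0 CPM in high-sugar mutants (log2 fold change 2.32 ± 0.16, edgeR adjusted p = 1.71e-06). The genotype effects on high sugar of CG2736, CG3829, fu12, Lpin and bmm, both diet responses of mdy and the interaction of fu12 were called in every alternative run.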

How the data were processed

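The authors deposited 1 table of raw counts per exon entry for the 12 libraries, from oligo(dT)-selected, randomly primed RNA per the labels' protocols. Per the submitters' processing notes BWA 0.5.9 and SAMtools were used with HTSeq 0.6.1. The genome build, the release of the annotation and whether counting used strand are not stated there, and coordinates are the table's own. BWA does not split reads over introns, so that reads across exon junctions may be missing, and bases shared by overlapping entries received no counts.

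Counts were summed per gene, leaving out 42 entries with no gene name (at most 0.0148% of a library). The 16413 names were matched to current symbols where possible (11755 current, 4378 older, 280 unmatched). Genes with low counts were removed with filterByExpr, and edgeR 4.0.16 (R 4.3.3) fitted a quasi-likelihood model with TMM normalization, robust estimation and 1 mean per group to all 12 libraries. Tests were two-sided over 10045 genes, with Benjamini-Hochberg adjustment and a threshold of 0.05. Standard errors were taken from the log2 fold changes and F statistics. Exon usage was tested with diffSpliceDGE. Both tests were tested on simulated data. Alternatives were DESeq2 1.42.0, other normalizations and filters, a replicate block, a cuticle covariate, the groups compared alone, leaving out entries that overlap other genes, and leaving out each library. Added after seeing the data were a 5′ coverage covariate and counting only entries that end within 2000 exonic bases of the 3′ end. Such entries were counted whole, also where they reach further 5′. Leaving out the 2 libraries of highest 5′ coverage and the block in low-sugar libraries alone were also added then.

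The genes, lists and tests were chosen with earlier results of these data known. Named were the 5 genes, Mlx, the 3 genes most like each, and of the lists the 6 genes with the smallest p plus those called alone in their list. ninaD was named in addition, as the 1 scavenger receptor called lower in high-sugar mutants. Of the genes most like Rfabg, 1 is not reported here. Of the cell type lists, hemocyte genes summed to 312 to 455 CPM a library, oenocyte genes to 563 to 943 (Fad2 at 0), neuron genes to 179 to 273 and 99 cuticle genes to 12884 to 51878. Between the low-sugar groups only, same-lettered libraries deviated together in all 3 letters (r = 0.744, 0.687 and 0.174). The labels state no pairing and libraries of different letters were not compared, so that whether the letters pair those 2 groups is not known. Whether the 3 libraries of a group are separate cultures is not in the labels, so that p-values measure the spread between libraries, which may be technical. Promoter and protein sequences were not used here.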

Additional observations from a re-analysis of the deposited data

Results flagged for a closer look

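The response of Rfabg to the diets differed between the genotypes by the test of the interaction, with a log2 difference of -1.65 ± 0.37 (mlx1 mutants minus wild type; edgeR adjusted p = 0.025). The group means of 5′ coverage moved in the same direction: from low to high sugar they went from -0.12 to 0.13 in wild type and from 0.06 to -0.06 in mutants. Counted near the 3′ end, mostly in entry 6, the interaction of Rfabg was -0.91 ± 0.21 (edgeR adjusted p = 0.0269). With 5′ coverage as a covariate it was -0.66 ± 0.27 (edgeR adjusted p = 0.300). Entry 7, nearer the 3′ end, was not fitted alone. The call of the interaction held in 14 of 23 alternatives. It was lost without each of 6 single libraries (edgeR adjusted p up to 0.0727), with a replicate block and without the 2 libraries of highest 5′ coverage. No separate test for outlying libraries was run.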

How the results depend on the processing

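The 25 log2 fold changes of the 5 genes gave 600 values under 25 alternatives (not every alternative applies to every contrast). Of these 553 kept their direction and their side of the threshold, 13 lost a call, 4 gained one and 30 changed sign, and none of the 30 had an adjusted p under 0.05 in that setting.

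The count of genes called for the diet response in wild type was 2, and 1 with 5′ coverage as a covariate (13.4% of all genes called, against 23.1%) and 1 to 2 without single libraries. For the genotype effect on low sugar it was 0, and 1 with a replicate block in the low-sugar libraries alone, where 8.81% of all genes were called (3.59% without it in all libraries, 1.25% without it in these). For the interaction it was 1. It was 0 with the replicate block (5.32% of all genes called, against 6.89%), 0 with 5′ coverage as a covariate (0.687%), 0 without the 2 libraries of highest 5′ coverage (2.47%), 2 with the cuticle covariate (1259 of 10045 genes), and 0 to 1 without single libraries. Under the block in all libraries no other call of the 5 genes changed. Between the other groups same-lettered libraries did not deviate together in every letter, and over all groups 8 of 18 same-letter pairs had r over 0.1 (range -0.538 to 0.744).

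With 5′ coverage as a covariate the sign changed for Rfabg (-0.13) and CG15828 (-0.22) in the wild-type diet response, for Rfabg on low sugar between genotypes (-0.19), for CG15828 (0.25) and Mtp (0.25) on high sugar between genotypes and for the interaction of CG15828 (0.17). Near the 3′ end it changed for the genotype effect on low sugar of Rfabg (-0.041) and Mtp (0.0032), on high sugar of CG15828 (0.026), and for the interaction of Mtp (-0.011). The sign of Mtp, near 0, also changed on high sugar with upper-quartile factors (0.014) and without the 2 libraries of highest 5′ coverage (0.0088), and for the interaction with RLE size factors (-0.0089), no filter (-0.011) and DESeq2 (-0.017). Without single libraries the wild-type diet response of LpR1 ran from -0.011 to 0.22, the mutant diet response of LpR2 from -0.054 to 0.21, the genotype effect on low sugar of LpR1 from -0.033 to 0.20 and of Mtp from -0.19 to 0.13, that of Mtp on high sugar from -0.10 to 0.081, and the interaction of Mtp from -0.13 to 0.18. With the cuticle covariate CG15828 was called for the diet response in mutants (-0.44, adjusted p = 0.0398). The causes of these changes were not tested. Depth was lowest for LpR2, with 231 to 388 counts a library. Promoter motifs and protein comparisons were not run.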
